A study of Mus musculus with 2 samples.

Results

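Imprinted genes are read mainly from the copy inherited from 1 parent, and the set described here is a list of 41 such genes from 16 mouse imprinted clusters. The members were taken by gene symbol, and each symbol matched 1 identifier among the 55536 genes of the deposited tables. By what is known of them in the mouse, 23 members are paternally expressed, 12 are maternally expressed, 5 are imprinted in some tissues only, and Gnas is mixed, with transcripts of either side. The parental side is background knowledge here, because the tables hold total levels and no allele was measured.

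The study measured total RNA of the heart of male B6CASTF1/J mice aged 14 days. These mice are hybrids of the inbred strains C57BL/6J and CAST/EiJ, and no treatment, transgene or deletion is named. There was 1 group of 2 libraries, labelled biological replicates 1 and 2, each made from 300 ng of RNA with ERCC spike-ins. The labels name 3 males and 1 donor label for both replicates, so pooling of animals cannot be told, and each library was taken as 1 sample. The p-values set the difference between these 2 libraries against counting error only, and that difference may be technical. By the naming of such hybrids the mother is C57BL/6J and the father CAST/EiJ, and reads were assigned to mm10, which is C57BL/6J sequence. The effect of CAST/EiJ variants on the values of paternally expressed members was not tested.

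Imprinted genes lie in clusters, and each cluster is governed by a control region that carries DNA methylation on 1 parental copy only. Several clusters hold a long noncoding RNA, such as H19, Kcnq1ot1, Meg3 or Airn, that is read from the opposite parental copy to neighbouring protein-coding genes. Many paternally expressed members promote growth before and shortly after birth (Igf2, the insulin-like growth factor of the fetus), and many maternally expressed members restrain it (Cdkn1c, a cell cycle inhibitor, and Igf2r, which binds Igf2 and takes it to the lysosome).

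Sequences of starts and of hosted microRNAs bear on the values. For Mest and Grb10 the deposited transcripts begin at alternative starts, so the 250 bases upstream of the leading start and of another start are shown for each, from RefSeq (GRCm38.p6), 5′ to 3′ on the strand of the gene. Capitals in the Mest windows mark TGCCGC or its reverse complement GCGGCA, the motif bound by ZFP57, the zinc finger protein that keeps methylation at imprinted control regions. Capitals in the Grb10 windows mark CG pairs. The Mest windows lie on the plus strand at chr6:30733256-30733505 (upstream start) and chr6:30737800-30738049 (main start), and the Grb10 windows on the minus strand at chr11:12037421-12037670 (upstream start) and chr11:12027972-12028221 (downstream start).
Mest upstream start: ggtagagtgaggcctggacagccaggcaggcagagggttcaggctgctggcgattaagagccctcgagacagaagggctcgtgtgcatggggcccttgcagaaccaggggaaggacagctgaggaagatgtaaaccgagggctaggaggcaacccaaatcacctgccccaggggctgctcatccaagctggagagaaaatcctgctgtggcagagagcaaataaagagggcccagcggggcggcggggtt
Mest main start: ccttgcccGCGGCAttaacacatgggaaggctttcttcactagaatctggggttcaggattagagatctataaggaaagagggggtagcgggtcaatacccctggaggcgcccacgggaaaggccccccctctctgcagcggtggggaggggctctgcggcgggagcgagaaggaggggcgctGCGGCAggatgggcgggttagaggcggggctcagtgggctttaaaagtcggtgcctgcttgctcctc
Grb10 upstream start: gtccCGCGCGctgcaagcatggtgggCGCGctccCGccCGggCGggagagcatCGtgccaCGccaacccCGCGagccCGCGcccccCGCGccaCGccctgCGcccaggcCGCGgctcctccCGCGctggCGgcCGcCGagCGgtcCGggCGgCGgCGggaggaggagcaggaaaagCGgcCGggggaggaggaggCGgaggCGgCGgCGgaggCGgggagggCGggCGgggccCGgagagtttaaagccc
Grb10 downstream start: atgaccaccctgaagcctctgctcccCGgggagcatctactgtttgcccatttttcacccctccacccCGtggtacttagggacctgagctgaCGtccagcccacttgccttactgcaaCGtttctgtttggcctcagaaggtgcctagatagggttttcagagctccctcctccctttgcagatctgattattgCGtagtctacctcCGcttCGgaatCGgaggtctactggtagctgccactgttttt
The main Mest window held 14 CG pairs and 2 matches of the motif, against 7 CG pairs and 0 matches in the upstream window. In the RSEM-style tables the transcripts within 100 bases of the main start carried 26.8 TPM in replicate 1 and 26.4 TPM in replicate 2, and those at the upstream start carried 0 in both. The kallisto-style tables gave the upstream start 9.92 and 3.99 TPM. The Grb10 upstream window held 40 CG pairs and carried 50.1 and 52.2 TPM, against 8 CG pairs and 2.15 and 1.97 TPM at the downstream start. These genes were chosen for their start use, and other members did not all follow this order. The Igf2 start with 14 CG pairs carried 14.2 and 18.6 TPM within 100 bases, against 48.2 and 31.9 TPM at a start with 7. With starts grouped within 1000 bases, which adds Igf2-207, the start with 14 pairs carried 55 and 52.4 TPM. The order of these Igf2 starts by RSEM therefore depended on the grouping. The kallisto-style tables gave 32.6 and 33.5 TPM against 50.4 and 35.2 TPM. For Asb4 the start with 8 pairs carried 0.34 and 0.66 TPM, against 2.70 and 2.68 TPM at the start with 6. Another Igf2 window, with 24 CG pairs, had no annotated transcript start within 100 bases, so no level could be read there.

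Windows of 300 bases (250 upstream of each RefSeq start and 50 downstream) were found for 31 of the 41 members, 46 windows in all. The motif TGCCGC, searched on both strands, occurred in 10 of them (21.7%), against 11.6% of all 32851 windows. Windows can overlap: 2 of the 10 belong to nearly the same Mest start, so 9 members held the motif. The median number of CG pairs was 12.5 against 7. A CG content above 0.6 of that expected from base composition was found in 50% of the members' windows and in 35.8% of all windows. By side it was found in 34.6% of the windows of paternally expressed members (9 of 26). For maternally expressed members it was 53.8% (7 of 13). On the maternal side a window each of Asb4 and Meg3 lay at 0.602, just above the cut. On the paternal side nearly the same Mest start had windows at 0.59 and 0.605. The contrast by side therefore rests on few windows. These are descriptions of letters in a window and no measure of binding or methylation. Cdkn1c, H19, Impact, Nap1l4, Nespas, Peg10, Peg13, Rtl1, Sgce and Trappc9 had no window.

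Several members are also hosts of microRNAs, and 29 RefSeq hairpins lie inside 8 members, 23 of them on the member's strand. Mirg held 14 hairpins, Rtl1 held 7 (6 on the opposite strand), Rian held 3, and Igf2, H19, Meg3, Mest and Usp29 held 1 each. Mature sequences are shown for the Igf2, H19 and Mest hairpins, the hosts with the highest levels, and for the only 2 mature microRNAs of these hosts that share a seed, both from Mirg. Capitals mark the seed, bases 2 to 8.
mmu-miR-483-5p: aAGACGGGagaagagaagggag
mmu-miR-483-3p: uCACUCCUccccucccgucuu
mmu-miR-675-5p: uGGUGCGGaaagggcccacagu
mmu-miR-675-3p: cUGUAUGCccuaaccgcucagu
mmu-miR-335-5p: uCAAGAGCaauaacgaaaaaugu
mmu-miR-335-3p: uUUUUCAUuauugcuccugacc
mmu-miR-453: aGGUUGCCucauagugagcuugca
mmu-miR-496a-5p: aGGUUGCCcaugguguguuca
The shared seed GGUUGCC belongs to miR-453 and miR-496a-5p. The libraries gave no level for these small RNAs: of 47 annotated microRNA genes within 5000 bases of a member, 42 were too short to receive reads by the RSEM-style tables (effective length 0) and 0 had a count in either library. Of 16 snoRNA genes there, 15 were too short in the same way, and Gm23297 beside Nap1l4 alone had counts, 3 and 4. The levels below are therefore those of the longer host transcripts.

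Depth was 39334380 expected counts in replicate 1 and 46391250 in replicate 2, and spike-ins took 0.517% and 0.531% of them. The label heart was checked against 7 heart muscle markers, of which 7 were detected (33146 and 31617 TPM in sum). The libraries differed in T cell and thymus markers and in atrial markers. The 11 T cell and thymus markers summed to 1.65 TPM in replicate 1 and 62.8 in replicate 2, with 10 of 10 tested higher in replicate 2, and 5 atrial markers summed to 1613 and 500.1 TPM, with all 5 lower. Levels are given in TPM, which scales for transcript length and depth, from the RSEM-style tables unless another unit is named, as replicate 1 then replicate 2, and errors are SDs over the 2 libraries (n = 2). In whole tissue, fewer cells of a type and less RNA per cell cannot be told apart.

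Most of the 41 listed members were present in the 14-day heart, over a wide range of levels. They were chosen with earlier results of these data known, and of 44 further imprinted or cluster genes 22 were detected. At a threshold of 1 TPM in both libraries, 28 of 41 members (68.3%) were detected, against 22.5% of all genes and 51.8% of protein-coding genes. The detected members were 23 of 33 protein-coding and 5 of 8 noncoding members, and Peg12 passed in 1 library only. The median level of the detected members was 12.1 TPM, against 9.39 TPM for all 12487 detected genes. Means reached 50 TPM or more for 8 members, 10 to 50 TPM for 7, 1 to 10 TPM for 14, and stayed under 1 TPM for 12.

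**Figure D1:**
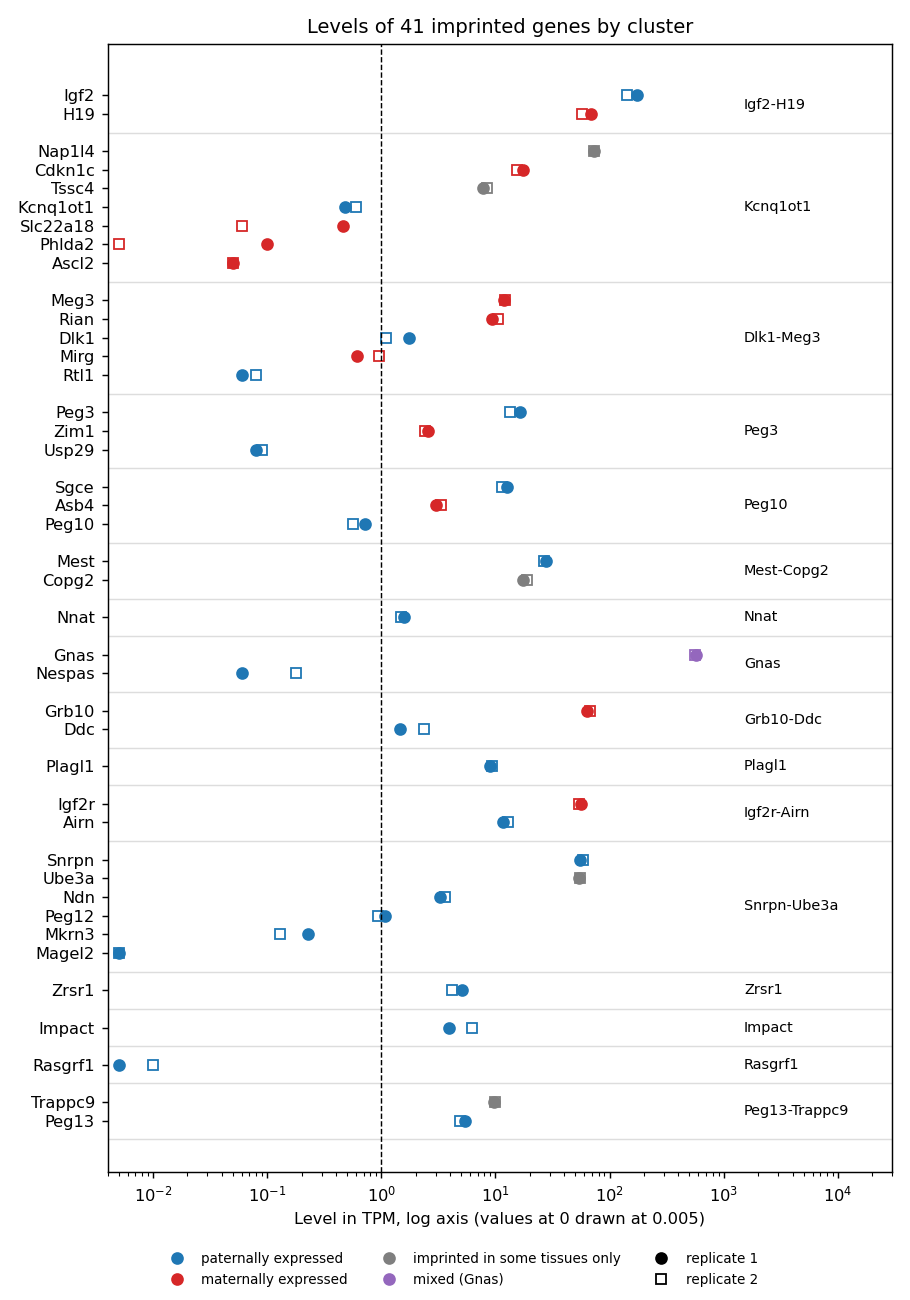
Level of each of the 41 members in TPM on a log axis, grouped by cluster; filled circles are replicate 1, open squares replicate 2, colours give the known parental side, and the dashed line marks 1 TPM. Gnas stands highest at 567 and 555 TPM, and Magel2, with 0 counts in both libraries, is drawn at 0.005 TPM.

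Gnas headed the order, followed by Igf2, Nap1l4, Grb10, H19, Snrpn, Igf2r and Ube3a. Grb10 (65.1 ± 2.20 TPM) and H19 (63.1 ± 7.92 TPM) did not differ beyond their spread, nor did Snrpn (57.0 ± 2.69 TPM) and Igf2r (55.3 ± 1.56 TPM). The 41 members summed to 1295 and 1245 TPM, of which Gnas took 43.8% and 44.6%. By known side, the paternally expressed members summed to 332 and 302 TPM (14 of 23 detected), the maternally expressed to 234 and 223 TPM (8 of 12), and the members imprinted in some tissues only to 162 and 165 TPM (5 of 5). The log2 ratio of the maternal over the paternal sum was -0.51 and -0.44 (mean -0.47 ± 0.0501). This direction rested on Igf2 and turned under 3 alternatives: the ratio was 0.53 with Igf2 left out, 0.40 with counts not divided by length, and 0.31 with the members imprinted in some tissues added to the maternal side. The paternal sum without Igf2 was 157 and 159 TPM.

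The Igf2-H19 cluster on chromosome 7 was the second highest by summed TPM, at 243 and 201 TPM. Igf2 (142650766 to 142666816, mm10) was at 175 TPM in replicate 1 and 143 TPM in replicate 2. H19, the maternally expressed noncoding RNA beside it (142575529 to 142578143), was at 68.7 and 57.5 TPM. Both were lower in replicate 2, and Igf2 exceeded H19 2.51-fold on average, with log2 ratios of 1.34 and 1.31 that lay closer together than either gene's levels.

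In the Kcnq1ot1 cluster, also on chromosome 7, Nap1l4, a histone chaperone imprinted in some tissues only, was at 73.0 TPM in both libraries. Cdkn1c, the cyclin-dependent kinase inhibitor p57, was at 17.3 and 15.3 TPM, and Tssc4, which takes part in spliceosome assembly, at 7.81 and 8.50 TPM. The paternally expressed antisense RNA Kcnq1ot1 was at 0.48 and 0.60 TPM, under the threshold. It nevertheless held 1361 and 2056 counts, since its 1 annotated transcript is 93092 bases long. So Cdkn1c exceeded Kcnq1ot1 by a log2 ratio of 4.68 ± 0.31 per length, while in counts not divided by length the ratio was -1.08. Kcnq1ot1 lies inside Kcnq1 (13.8 and 13.3 TPM) on the opposite strand. Whether the counting used strand is not stated, so reads of these genes may not be told apart there. The other maternally expressed members of the cluster were near 0: Slc22a18, a membrane transporter, had 15 and 3 counts, Ascl2, a transcription factor of the placenta, 2 and 3 counts, and Phlda2, which restrains placental growth, 2 and 0 counts. With a floor of 3 counts, the level of Phlda2 in replicate 2 could be up to 0.205 TPM.

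In the Dlk1-Meg3 cluster on chromosome 12, the maternally expressed noncoding RNAs Meg3 and Rian stood above the paternally expressed protein-coding genes Dlk1 and Rtl1, and Mirg lay between these. Meg3 was at 11.8 and 12.2 TPM, Rian, a host of snoRNAs, at 9.26 and 10.6 TPM, and Mirg, the microRNA host, at 0.61 and 0.95 TPM. Dlk1, a transmembrane ligand related to Notch ligands, was at 1.75 and 1.09 TPM (65 and 66 counts), and Rtl1, a gene derived from a retrotransposon, at 0.06 and 0.08 TPM (12 and 18 counts). Meg3 exceeded Dlk1 by a log2 ratio of 3.03 ± 0.48, and Rian exceeded Mirg by 3.53 ± 0.27. Meg3 and Rian were close, with a ratio of 0.28 ± 0.10 that was 0.00 in the kallisto-style tables.

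In the Peg3 and Peg10 clusters a paternally expressed gene stood above its neighbours. In the Peg3 cluster on chromosome 7, Peg3, a zinc finger protein, was at 16.3 and 13.3 TPM, against 2.54 and 2.39 TPM for Zim1, a maternally expressed zinc finger gene, and 0.08 and 0.09 TPM for Usp29, a deubiquitinase gene with a start close to that of Peg3. In the Peg10 cluster on chromosome 6, Sgce, the epsilon-sarcoglycan of the dystrophin-associated complex, was at 12.7 and 11.4 TPM, 16.4-fold above Peg10, whose start lies beside it. Peg10, another gene derived from a retrotransposon, was at 0.72 and 0.57 TPM, and Asb4, a maternally expressed ankyrin repeat gene, at 3.04 and 3.35 TPM. Neighbours that share a start region thus differed widely in level: Peg3 exceeded Usp29 by a log2 ratio of 6.32 ± 0.26 and Sgce exceeded Peg10 by 4.03 ± 0.10.

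Mest and Copg2, also on chromosome 6, lay closer together. Mest, a putative hydrolase also called Peg1, was at 27.4 and 26.6 TPM, and Copg2, a coat protein of Golgi vesicles, at 17.6 and 18.7 TPM, a log2 ratio of 0.57 ± 0.10. The pair overlaps tail to tail on opposite strands, sharing 912 exon bases (23.1% of those of Mest and 17.8% of those of Copg2). Whether the counting used strand is not stated, so reads of the shared bases may not be told apart.

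In the Igf2r cluster on chromosome 17, Igf2r was at 56.4 and 54.2 TPM and Airn, the paternally expressed antisense RNA that starts within it, at 11.7 and 12.8 TPM. The ratio of Igf2r over Airn was 2.17 ± 0.13 (log2), against 1.59 by kallisto-style TPM and 5.36 in counts not divided by length. Airn is annotated in these tables as 6 short spliced forms, of which Airn-201 (1113 bases) led with 5.61 and 6.60 TPM, and these share no exon base with Igf2r. Grb10, an adaptor that dampens insulin and growth factor receptor signals, was at 63.6 and 66.7 TPM on chromosome 11. Ddc beside it, an amino acid decarboxylase with a transcript known to be paternally expressed in heart, was at 1.47 and 2.36 TPM (43 and 81 counts). The log2 ratio of Grb10 over Ddc was 5.05 ± 0.41.

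In the Snrpn-Ube3a region of chromosome 7, which is linked to the Prader-Willi and Angelman syndromes in humans, Snrpn and Ube3a were alike in level. Snrpn, a core protein of small nuclear ribonucleoproteins, was at 55.1 and 58.9 TPM, and Ube3a, a ubiquitin ligase imprinted in neurons only, at 54.1 and 54.7 TPM. Their log2 ratio of -0.07 ± 0.06 became 0.91 in counts not divided by length. The small paternally expressed genes to the side were low: Ndn (necdin, a MAGE family protein) at 3.29 and 3.64 TPM, Peg12 at 1.07 and 0.94 TPM, and Mkrn3, a ring finger gene, at 0.23 and 0.13 TPM. Magel2, another MAGE family gene, had 0 counts in both libraries, which allows up to 0.0216 and 0.0181 TPM at a floor of 3 counts per library. Against that floor Ndn was at least 152-fold higher in replicate 1 and at least 201-fold higher in replicate 2.

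Snrpn shares exon bases with other genes of its strand, 216 with Snurf and 589 with Gm38393. Snurf, read from the same transcripts as Snrpn, was listed at 142 and 146 TPM in the RSEM-style tables and at 0 in the kallisto-style tables. The split of reads among Snrpn, Snurf and Gm38393 is therefore uncertain. Ube3a likewise overlaps Snhg14, the long antisense RNA, by 1803 exon bases on the opposite strand, and Snhg14 was at 6.37 and 5.89 TPM.

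The remaining clusters hold 1 gene or 2. Plagl1, a zinc finger transcription factor, was at 8.99 and 9.32 TPM, Zrsr1, a splicing factor gene inside Commd1 that shares 412 exon bases with it on the opposite strand, at 5.09 and 4.18 TPM, and Impact, a regulator of translation under stress, at 3.88 and 6.17 TPM. Nnat, neuronatin, was at 1.59 and 1.49 TPM inside Blcap (21.9 and 24.2 TPM), with which it shares no exon base. Rasgrf1, an exchange factor for Ras known from brain, had 0 and 1 counts. Trappc9, a subunit of a vesicle tethering complex, was at 9.72 and 9.95 TPM. Peg13, the noncoding RNA inside it, was at 5.45 and 4.92 TPM, a log2 ratio of Trappc9 over Peg13 of 0.91 ± 0.13. Peg13 lies in an intron of Trappc9 on the same strand, so reads of that intron may not be told apart from Peg13.

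**Figure D2:**
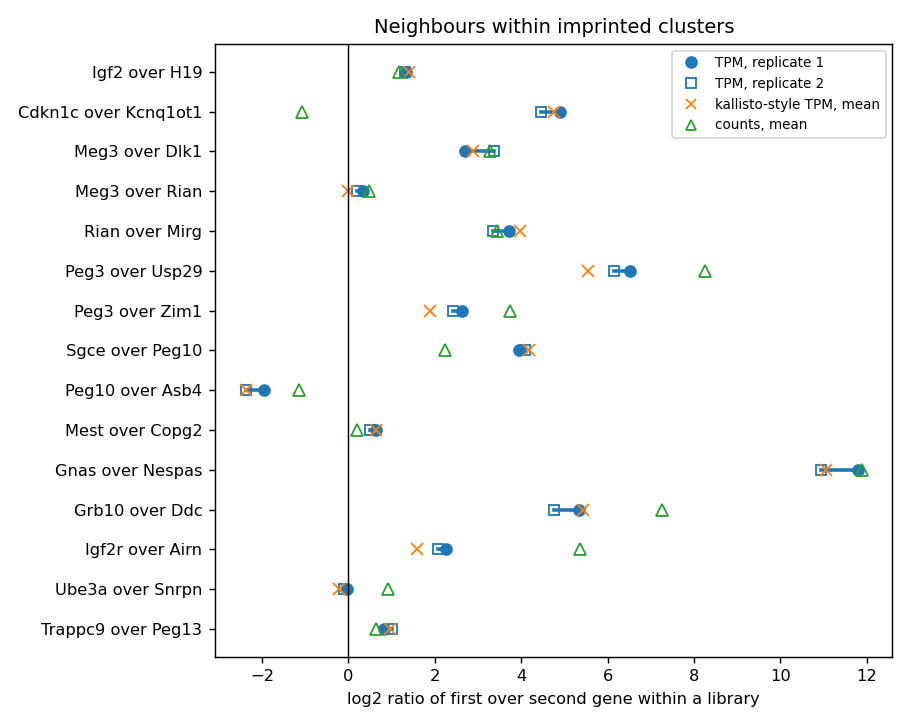
Log2 ratio of the first over the second gene for 15 pairs of neighbours in imprinted clusters; circles and squares are replicates 1 and 2 by TPM with a pseudocount of 0.1, crosses the mean by kallisto-style TPM, and triangles the mean by counts not divided by length. Cdkn1c over Kcnq1ot1 lies at 4.68 by TPM and at -1.08 by counts.

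Of the 15 pairs with counts in both genes, 11 differed at least 2-fold in the same direction in both libraries. The exceptions were Meg3 over Rian, Mest over Copg2, Ube3a over Snrpn and Trappc9 over Peg13. The sixteenth pair is Ndn and Magel2. The members were chosen with earlier results known, and other gene pairs were not counted, so the 11 cannot be set against a share.

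Gnas encodes the alpha subunit of the stimulatory G protein Gs, which passes signals from receptors such as the beta-adrenergic receptors to adenylyl cyclase. The gene (chromosome 2, 174284320 to 174346744) has 4 main groups of starts in order along the strand: Nesp, read from the maternal copy, XL-alpha-s and exon 1A, read from the paternal copy, and the start of Gs alpha itself, read from both copies in most tissues. In the RSEM-style tables the Gs alpha start (174330006 to 174330287) held 556 and 543 TPM, or 98.1% and 97.9% of the gene. The 3 other groups were low there, with exon 1A (174327570 to 174328023) at 0.83% and 0.955%, Nesp (174284320 to 174285358) at 0.33% and 0.227%, and XL-alpha-s (174297859) at 0.0547% and 0.0685%.

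The kallisto-style tables gave another picture of exon 1A. There the Gs alpha start held 78.8% and 75.5% and exon 1A 20.8% and 23.8%. Most of that came from Gnas-218, a noncoding transcript of 607 bases, listed at 145 and 153 TPM against 1.98 and 2.26 TPM in the RSEM-style tables. Nesp and XL-alpha-s stayed under 1% in both tables, and the antisense RNA Nespas, which overlaps Nesp, had 4 and 14 counts. Among the Gs alpha transcripts, Gnas-208 (212 and 204 TPM), Gnas-206 (205 and 183 TPM) and Gnas-207 (140 and 155 TPM) shared the level in the RSEM-style tables, while Gnas-207 led in the kallisto-style tables with 271 TPM in both libraries.

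Igf2 was spread over 6 groups of starts. In the RSEM-style tables the second group from the 5′ end (142661205 to 142661870) held 31.5% and 36.6%, the fourth (142657466 to 142657496) 27.6% and 22.3%, and the sixth (142653030) 24.4% and 24.7%. By kallisto the fifth group (142656018) led instead with 38% and 38.8%, against 0 and 0.273% by RSEM. The second held 16% and 20% there, the sixth 15.8% and 15.1%, and the first 0 against 10.3% and 10.6% by RSEM. The tables were closer for the fourth group, with 24.8% and 21% by kallisto. The third (142659489) held 6.13% and 5.57% by RSEM and 5.41% and 5.04% by kallisto. Short transcripts differed between the tables: Igf2-207 (376 bases) was at 40.8 and 33.8 TPM against 0 and 0, and Igf2-209 (462 bases) at 0 and 0.39 TPM against 77.2 and 65.1 TPM in the kallisto-style tables.

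Grb10 is known to be read from an upstream promoter on the maternal copy in most tissues and from downstream promoters on the paternal copy in neurons. Grb10-201, from the upstream start whose sequence is shown above, held 78.8% and 78.3% of the level by the RSEM-style tables and 69.8% and 77% by the kallisto-style tables. It led in both tables and both libraries. The downstream start of Grb10-203 held 3.38% and 2.95%, and a further group (12026324 to 12026732) 15.0% and 16.9%, mostly Grb10-207, a transcript of 430 bases that the kallisto-style tables list at 0. Which annotated start matches the neuronal promoter was not tested.

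**Figure D3:**
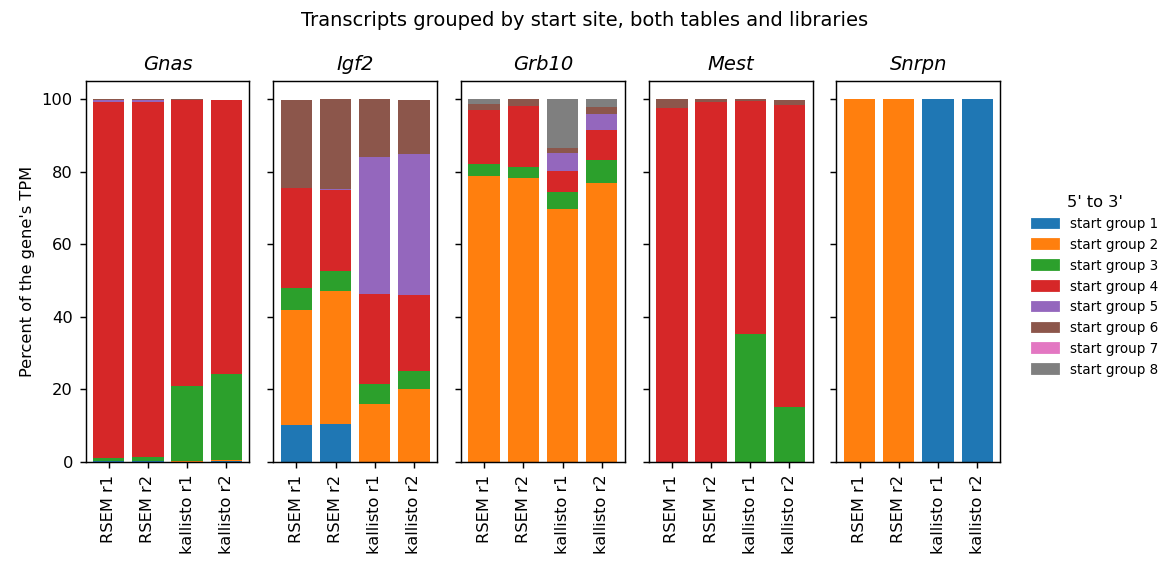
Share of a gene's TPM, in percent, by group of transcript starts, numbered 5′ to 3′, for Gnas, Igf2, Grb10, Mest and Snrpn, with replicates 1 and 2 (r1, r2) in the RSEM-style and the kallisto-style tables. The Gs alpha start (Gnas group 4) holds 98.1% and 97.9% by RSEM and 78.8% and 75.5% by kallisto, while Grb10 group 2 leads throughout.

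The main start of Mest held 97.6% and 99.2% in the RSEM-style tables. In the kallisto-style tables it held 64.3% and 83.2%, and the upstream start held 35.2% and 15.1%, so the libraries differed in this split there. Snrpn was assigned wholly to Snrpn-201 in the RSEM-style tables (55.1 and 58.9 TPM) and wholly to Snrpn-202, with a start farther upstream, in the kallisto-style tables (62.5 and 67.0 TPM). For Ddc, Ddc-209 led with 50.7% and 63.8% by RSEM and was at 0 by kallisto. By RSEM the leading transcript held 79.3% and 74.0% of H19, 73.0% and 69.1% of Peg3, and 29.9% and 35.8% of Meg3. In all, 26 members had several transcripts and a mean above 1 TPM. The leading transcript was the same in both libraries for 26 of 26 by RSEM, and the same in both tables and libraries for 18 of 26, the exceptions being Ddc, Gnas, Igf2, Nap1l4, Nnat, Sgce, Snrpn and Ube3a.

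With 1 group, the difference that could be tested was that between the 2 libraries. An exact binomial test on counts was run over 16611 genes (2-sided, scaled with TMM factors, Benjamini-Hochberg adjusted), and 35 members had enough counts. At an adjusted p of 0.05 and at least 2-fold, 0 of 35 members were called, against 3.15% of all genes tested (2.41% higher and 0.734% lower in replicate 2), and 0 members passed 2-fold with an unadjusted p under 0.05. At any p, 0 members tested were 2-fold apart, so the fold threshold alone gave these counts of 0. The edgeR exact test, with an assumed biological coefficient of variation of 0.1 or 0.2, also called 0 members. With that threshold it is no separate check. How many of all genes it called was not counted, so this 0 cannot be set against a share. At any fold, 12 of 35 members were called, against 21.7% of all genes: 3 were higher in replicate 2 (10.3% of all genes) and 9 lower (11.5%). The median log2 ratio was -0.07 over the members tested and 0.00 over all genes tested.

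**Figure D4:**
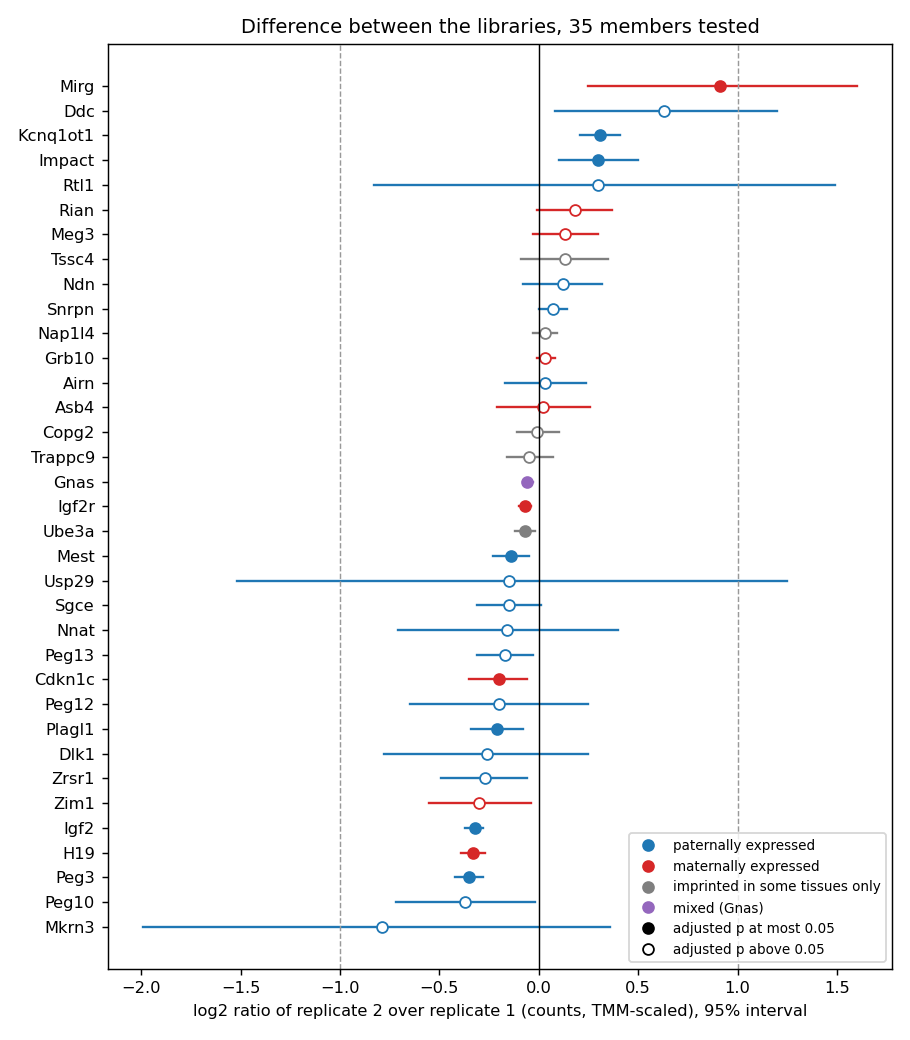
Log2 ratio of replicate 2 over replicate 1 with 95% intervals for the 35 members tested; filled points passed an adjusted p of 0.05, dashed lines mark 2-fold, and colours give the known parental side. Peg3, H19 and Igf2 lie lowest among the filled points, at -0.35, -0.33 and -0.32, and no point passes 2-fold.

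Among the called members, Peg3, H19 and Igf2 fell by the most. Peg3 fell by 0.35 on the log2 scale (0.783-fold, exact binomial test, adjusted p 6.9e-22), H19 by 0.33 (0.795-fold, adjusted p 2.04e-23) and Igf2 by 0.32 (0.799-fold, adjusted p 5.75e-50). Cdkn1c, Mest, Plagl1, Gnas, Igf2r and Ube3a fell by 0.06 to 0.21. Mirg rose 1.88-fold on 28 and 64 counts (95% interval of the log2 ratio 0.25 to 1.60), Kcnq1ot1 1.24-fold and Impact 1.23-fold. The intervals cover counting error only.

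With TMM factors, library totals, DESeq2 size factors and spike-in totals, 6 of the 12 were called in the same direction. These were Igf2, H19 and Peg3 lower, and Kcnq1ot1, Mirg and Impact higher. How many of all genes kept their direction under all these scalings was not counted, so the 6 cannot be set against a share. With library totals in place of TMM, which moved the median of all genes tested by 0.05 (log2), 5 members were higher and 3 lower. That scaling called 3769 of all 16611 genes tested at any fold. With the edgeR exact test at either assumed coefficient, 0 members were called at any fold, and its calls over all genes were not counted. For Plagl1 and Ube3a the TPM went the other way from the counts (log2 0.05 and 0.02), and for Impact the TPM ratio was 1.59-fold.

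Other genes moved between the libraries alongside. The 7 fibroblast markers, none of them at 0, summed to 1235 TPM in replicate 1 and 1057 in replicate 2. Of these, 7 of 7 were lower at any fold, against 11.5% of all genes tested. Lower values were not limited to them: 5 of 5 erythroid, 5 of 6 endothelial, 5 of 6 smooth muscle and pericyte and 5 of 7 heart muscle markers were also lower at any fold. Among these, Myh11, Pdgfrb and Kcnj8 fell by 0.33, 0.34 and 0.32 on the log2 scale. Acta2 of the same smooth muscle and pericyte list went the other way, at 142.54 and 181.54 TPM (log2 0.39, called higher). These 6 markers summed to 385 TPM in replicate 1 and 402 TPM in replicate 2. The T cell and atrial markers differed as given above, the 6 macrophage markers summed to 68.4 and 95.5 TPM (4 of 6 higher), and the 5 adipocyte markers to 27.9 and 10.7 TPM (4 of 5 lower, 1 higher). Of the adipocyte markers, Ucp1 of brown fat was at 9.76 and 0.32 TPM (459 and 18 counts, 0.0322-fold). The part of these cell types in the differences of the imprinted genes was not tested.

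RNA of most genes that set and keep imprints was detected. Of 24 such genes, 20 passed, all but Dnmt3b, Dnmt3l, Ctcfl and Dppa3. At 2-fold 0 of 21 tested were called, against 3.15% of all genes tested. At any fold 5 were higher and 2 lower, against 10.3% and 11.5% of all genes tested. The highest were Zfp445 (46.7 and 44.6 TPM) and Trim28 (44.1 and 47.3 TPM), which hold methylation at control regions, the methyltransferase Dnmt3a (46.1 and 48.5 TPM) and the histone methyltransferase Ehmt1 (20.1 and 19.9 TPM). Zfp57, whose motif was searched above, was at 1.63 and 1.87 TPM, and Dppa3, a factor of egg and early embryo, had 0 counts.

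Of 44 further imprinted or cluster genes that are not members, 22 were detected, led by Cd81 (207.9 and 207 TPM), a tetraspanin that lies between Ascl2 and Tssc4 in the Kcnq1ot1 cluster, and Dcn (177 and 158 TPM), the matrix proteoglycan decorin and itself a fibroblast marker here. Commd1, around Zrsr1, was at 61.1 and 69.0 TPM, and Bcl2l1, an inhibitor of cell death, at 33.2 and 37.8 TPM. At any fold 3 of 32 tested were higher and 5 lower, against 10.3% and 11.5% of all genes tested. At 2-fold 0 were called, against 3.15% of all genes tested. Of 12 partners of the growth genes, 9 were detected and 0 of 12 were called at 2-fold. At any fold 0 were higher and 5 lower, against the same shares of all genes tested, 10.3% and 11.5%. The highest were the IGF binding proteins Igfbp5 (56.9 and 57.1 TPM) and Igfbp4 (54.9 and 51.2 TPM), the cell cycle inhibitor Cdkn1a (54.8 and 49.7 TPM) and the insulin receptor Insr (48.3 and 47.4 TPM).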

How the data were processed

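Total RNA of heart was measured in 2 libraries of 1 group, so no conditions were compared. For each library the authors deposited RSEM-style gene and transcript tables and a kallisto-style transcript table, names that rest on their columns. Per the file headers and readme, reads were assigned to mm10 with annotation M21; the authors' tool versions were not stated. The deposited RSEM-style tables hold expected counts, TPM and posterior mean TPM, and the authors' percent of the gene's TPM per transcript was recomputed from TPM; estimated counts and TPM of the deposited kallisto-style tables were summed per gene. Symbols and coordinates came from GENCODE M21.

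Members were detected at 1 TPM in both libraries. Ratios of neighbours used TPM with a pseudocount of 0.1. Transcript starts within 1000 bases were grouped. Expected counts were rounded, and a 2-sided exact binomial test with TMM-scaled totals (edgeR 4.0.16; R 4.3.3) was run over genes that had 10 or more counts in both libraries or a total of 20, with Benjamini-Hochberg adjustment over all 16611 and, for a call, a log2 ratio of at least 1; intervals are Clopper-Pearson, 95%. DESeq2 1.42.0 gave alternative size factors. Tests were tried on simulated data. Python 3.11.15, scipy 1.17.1 and RefSeq sequences (GRCm38.p6) were used.

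The members and lists were chosen with earlier results of these data known. Named genes were all 41 members, their 6 highest transcripts in each table, and the 4 highest of each list of related genes. Zfp57, Dnmt3b, Dnmt3l, Ctcfl, Dppa3, Blcap, Ucp1, the smooth muscle markers named and the genes overlapping a member were added after their values were seen, as was the rule for overlaps. At 2-fold, 0 of the heart muscle, endothelial, epicardial, smooth muscle, macrophage, erythroid and skeletal muscle markers were called, 1 neural marker was lower, and among adipocyte markers 1 was higher and 1 (Ucp1) lower.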

Additional observations from a re-analysis of the deposited data

How the results depend on the processing

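The number of members detected was 25 to 35 under 5 other thresholds and tables, and 28 to 29 when a replicate was left out. The summed maternal over paternal level (log2, -0.47) was -0.50 to -0.46 with kallisto-style TPM, posterior mean TPM or retained introns left out, and -0.51 to -0.44 when a replicate was left out. It reversed to 0.40 with counts not divided by length, since long genes then weigh more, and to 0.31 with the members imprinted in some tissues added to the maternal side. With Igf2 left out, chosen after seeing the data, it was 0.53. Of members differing at least 2-fold between libraries, 0 were called in all scalings, by kallisto-style counts and by the edgeR exact test at both assumed coefficients; 1 (Slc22a18, 15 and 3 counts) was called with no filter on low counts, and 12 at any fold. With TMM factors 0 of the members tested were 2-fold apart at any p, so the threshold alone gave the main count of 0. The count at any fold was 8 to 14 by the binomial test and 0 with either assumed coefficient. Its alternatives were added after the data were seen. Under the binomial settings 3352 to 3769 genes were called at any fold among the 16611 to 25773 tested. The edgeR calls over all genes were not counted.

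Of the 15 neighbour ratios, 2 reversed with counts not divided by length, Cdkn1c over Kcnq1ot1 (-1.08) and Ube3a over Snrpn (0.91); no other ratio changed sign under any alternative. The number of pairs at least 2-fold apart (11) was 9 to 11 under the alternatives and 11 to 12 when a replicate was left out. No paired analysis was possible because both libraries belong to 1 group. Leaving out a replicate gives no test of a difference between libraries, and the Ndn and Magel2 pair was left out of these ratios because Magel2 had 0 counts.

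With 2 libraries the spread within the group beyond counting error was not estimated for single genes, and members with under 10 counts in a library and under 20 in total were not compared at this depth. Shares of transcripts with common exons differed between the tables.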
